A study of Mus musculus with 5 samples.

Results

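Expression of 10 genes of bile acid synthesis, of the receptors that control it and of the main bile acid transporters was followed in 5 livers. The genes were Cyp7a1, Cyp8b1, Cyp7b1, Cyp27a1, Nr0b2, Nr1h4, Fgfr4, Klb, Slc10a1 and Abcb11, picked by symbol out of 19938 genes that had a probe set assigned to a single gene. Where a gene has several probe sets the one with the highest mean stands for it, and each of the 10 genes had exactly 1, so the measured mean chose none of them. The livers came from 5 wildtype male C57BL/6N mice, 1 array per mouse, aged 5 to 6 months. All 5 had received streptozotocin, which destroys pancreatic beta cells, at 65 mg/kg intraperitoneally on 5 consecutive days at 10 to 16 weeks of age, and then food with bezafibrate, a fibrate that activates PPARs, for 8 weeks from 2 weeks after the injections. The labels give a food content of 0.25% or 0.5% without assigning it to a mouse, so dose and other differences between mice cannot be told apart. Livers without either compound were not analysed here, and the values therefore describe levels and the spread between doubly treated mice, not an effect of a compound.

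Hepatocytes convert cholesterol to bile acids by a classical route that starts with CYP7A1, and by an alternative route that starts with CYP27A1 in mitochondria and continues with CYP7B1, while CYP8B1 sets the share of cholic acid. Bile acids limit their own synthesis: they activate the nuclear receptor FXR (Nr1h4), which induces the repressor SHP (Nr0b2), and SHP silences Cyp7a1 and Cyp8b1 at sites held by the factors LRH-1 (Nr5a2) and HNF4A. In the ileum FXR induces the hormone FGF15, which reaches the liver and acts through the receptor FGFR4 and its co-receptor beta-Klotho (Klb). NTCP (Slc10a1) takes bile acids up from blood, and BSEP (Abcb11), an FXR target, exports them into bile. Fibrates are known to lower Cyp7a1 in rodent liver through PPARA.

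The stretches before the start sites of Nr0b2 and Cyp8b1 are shown because Nr0b2 encodes the repressor and Cyp8b1 is one of its targets. Windows of 250 bases before the annotated start (RefSeq, GRCm38.p6) were matched for 8 of the 10 genes, not for Cyp7a1 and Cyp7b1. Capitals mark letters that match a motif searched on both strands, and positions count back from the base before the start, which is -1. In Nr0b2, at chr4:133553126-133553375 on the plus strand, the LRH-1 letters CAAGGNCA matched from -201 to -194 and overlapped an E-box, CACGTG, the letters bound by the clock factors, from -195 to -190. In Cyp8b1, at chr9:121916306-121916555 on the minus strand, the HNF4 letters CAAAGTCCA matched from -67 to -59 and overlapped the LRH-1 letters from -60 to -53.
Nr0b2: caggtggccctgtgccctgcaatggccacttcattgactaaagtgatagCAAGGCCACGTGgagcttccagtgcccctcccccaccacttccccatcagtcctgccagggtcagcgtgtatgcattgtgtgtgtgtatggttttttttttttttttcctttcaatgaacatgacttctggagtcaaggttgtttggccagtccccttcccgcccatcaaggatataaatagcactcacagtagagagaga
Cyp8b1: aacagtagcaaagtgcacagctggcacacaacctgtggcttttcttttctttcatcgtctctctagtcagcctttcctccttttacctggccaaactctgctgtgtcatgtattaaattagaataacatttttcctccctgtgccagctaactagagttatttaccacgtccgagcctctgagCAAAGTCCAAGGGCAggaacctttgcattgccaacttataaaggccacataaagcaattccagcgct
Of 32851 windows of the same length in the table, 5.53% held the LRH-1 letters, 0.384% the HNF4 letters and 6.02% the E-box. The letters AGGTCA, a nuclear receptor half-site found in 14.0% of windows, matched in Nr1h4, in Abcb11 and in 1 of the 2 windows of Slc10a1. The D-box letters TTATGNAA (3.07% of windows), to which DBP binds, matched in Cyp27a1 alone of the 8, and the windows of Fgfr4 and Klb held none of these motifs. The inverted repeat IR1 of this half-site, with 1 base between its arms, is the arrangement FXR binds. Its exact letters were in 0.00609% of all windows and in none of the windows of these genes. Exact letters this rare would be missed in nearly any window, so their absence does not show that a looser repeat is missing. In Abcb11 the half-site from -56 to -51 was part of a stretch that differed from the full repeat at 1 base. These matches describe letters in a window and not binding.

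The medians of the arrays were close, lying between 6.22 and 6.31. All levels are deposited RMA values in log2 units, so that each unit is a doubling of the signal. Odorant and pheromone receptor genes, silent in liver, gave a brightness floor: the 95th percentile of their 1210 probe sets lay between 5.59 and 6.07 by array. The array of mouse 4 differed from the others, with a floor of 6.07 against 5.59 to 5.79. Of genes with a mean above the floor, 36.5% were lowest and 8.47% highest in mouse 4. All 10 genes exceeded it on all 5 arrays, the dimmest (Fgfr4) by at least 1.62. The tissue label matched its markers: 14 of 14 measured hepatocyte markers exceeded the floor on all arrays, with list means from 12.75 (mouse 2) to 12.81 (mouse 1). In whole liver, fewer cells of a type and less RNA per cell cannot be told apart. Levels of different probe sets are not comparable with each other, so only differences between mice are compared below.

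Cyp7a1, the rate-limiting enzyme of the classical route, was low in a single liver. Its log2 values were 11.20, 9.46, 10.94, 11.02 and 10.94 in mice 1 to 5, a mean of 10.71 ± 0.71 (SD, n = 5). Mouse 2 lay 2.96-fold below the mean of the other 4, which stayed between 10.94 and 11.20 with an SD of 0.12. The distance from mouse 2 to the nearest other liver was 1.48 log2 units. Of 13336 tested genes 1524 had their lowest value in mouse 2, and no other of these reached that distance. As a share of the whole range this gap was 0.848. A gap above 0.71 of the range is said below to set a mouse apart. Such a mouse was found for 5.65% of tested genes: mouse 1 for 0.735%, mouse 2 for 0.87%, mouse 3 for 1.04%, mouse 4 for 1.54% and mouse 5 for 1.47%.

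The spread of Cyp7a1 exceeded that of genes of the same brightness. For 14586 probe sets above the floor, the variance between mice was compared with the variance expected at that level (limma, F test, Benjamini-Hochberg adjustment over all of them, threshold 0.05), and 0.357% passed. Cyp7a1 was the 1 of the 10 genes that passed, at an adjusted p of 0.0287, with 52.2 times the expected variance. Its SD was above that of 99.04% of the 726 genes within 0.5 log2 units of its level. The call was lost in 5 of 8 other settings, at an adjusted p of 0.0525 (stricter brightness filter) to 0.225 (all probe sets). Over the 8 settings the SD ranged from 0.69 to 0.72. Without mouse 2 the SD was 0.12 and the adjusted p 0.991, and without mouse 4 they were 0.79 and 0.143.

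Nr0b2, which encodes the repressor SHP, was high in the same liver. Its values were 9.70, 10.61, 9.59, 9.83 and 9.64 in mice 1 to 5 (mean 9.87 ± 0.42, SD, n = 5). Mouse 2 lay 1.89-fold above the mean of the others, which stayed between 9.59 and 9.83, and the gap was 0.762 of the range. Only Scnn1g, a subunit of the epithelial sodium channel, had a larger gap at the high end in mouse 2 among the tested genes. The variance of Nr0b2 was 15.6 times that expected and did not pass over all probe sets (limma adjusted p = 0.190). Without mouse 2 its SD was 0.10.

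Likeness of pattern was measured as the root mean square difference between the centred values of 2 genes over the 5 mice, with the sign turned for opposite patterns, among 12511 genes. With the sign turned, Nr0b2 was the nearest of all to Cyp7a1, at 0.298 log2 units. Zmynd12 (0.36), the sodium channel subunit genes Scn4b (0.37) and Scnn1g (0.38), and the uroplakin gene Upk1b (0.38) followed. Upk1b exceeded the brightness floor on 3 arrays only, and Scn4b exceeded it by as little as 0.11 log2 units. In the reverse direction Cyp7a1 ranked 315 for Nr0b2, whose swing was smaller. Both genes were picked with their opposite values in mouse 2 known, so the rank describes these 5 livers and is no independent support.

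The gene nearest to Cyp7a1 without turning the sign was Per3, a clock gene, at 0.33, and Dbp, a clock output factor that drives daily Cyp7a1 expression, was at 0.41. Per3 was 7.635, 6.65, 7.37, 7.62 and 7.185 in mice 1 to 5. Dbp was 9.17, 8.54, 8.98, 9.42 and 9.06. Both were lowest in mouse 2, by 0.53 and 0.44 log2 units from the next liver, less than the 1.48 of Cyp7a1. Foxa3, a hepatocyte forkhead factor gene, lay between them (0.40). The transporter gene Slc22a27 (0.42), above the floor on 2 arrays, and Spin2c (0.44), above it by as little as 0.13, completed the nearest 5.

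Clock genes as a list did not all follow mouse 2. Of 15 tested, 5 (Per3, Dbp, Per2, Nr1d2 and Bhlhe40) were lowest in mouse 2, where 11.4% of all tested genes were lowest. In mouse 4, 6 of the 15 were highest, against 8.47% of all tested genes. With limma 0 variances of the list passed (6 at an unadjusted p under 0.05). The widest were Ciart, a repressor of the clock, with an SD of 0.72 and its lowest value in mouse 3 (5.83), and Arntl, which encodes the clock activator BMAL1, with an SD of 0.42 and its lowest value in mouse 4 (6.34). The time of day at which livers were taken is not given in the labels, and its part in the Cyp7a1 value was not tested.

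**Figure D1:**
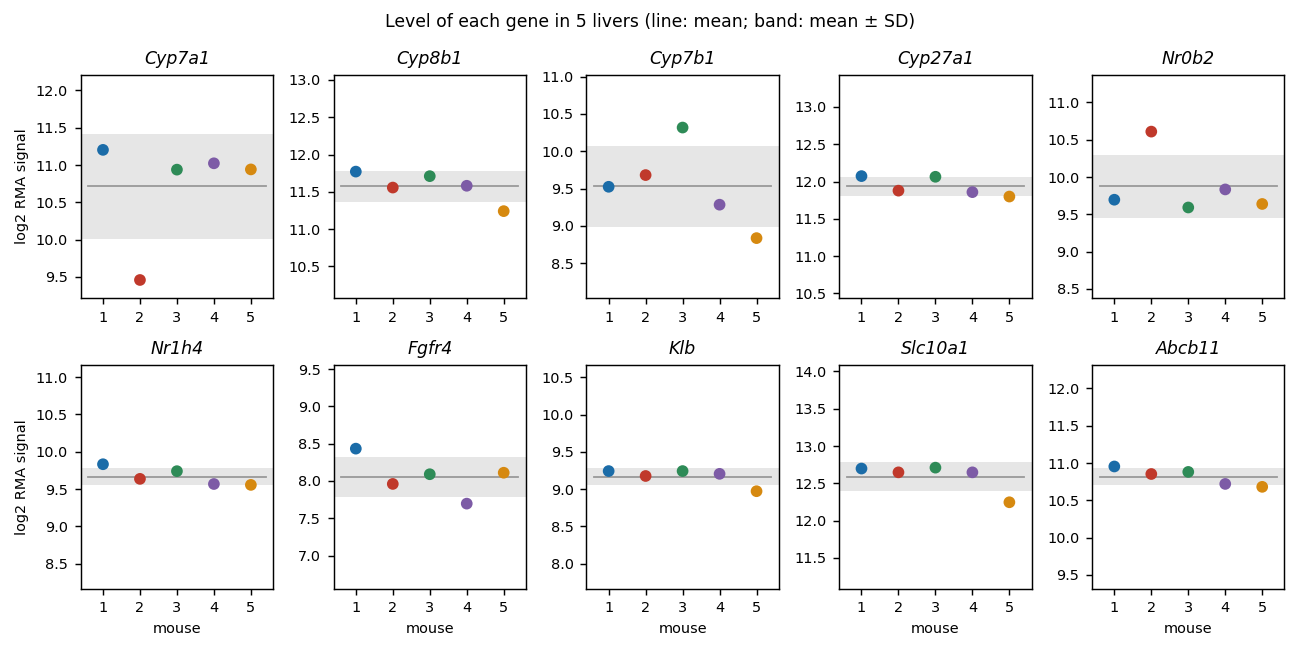
Log2 RMA signal of the 10 genes in mice 1 to 5, 1 point per liver, with the mean as a line and the mean ± SD as a band; all panels span the same log2 range. Cyp7a1 is low (9.46) and Nr0b2 high (10.61) in mouse 2, whereas Slc10a1 and Klb are lowest in mouse 5.

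Cyp8b1, the other synthesis gene that SHP represses, was not low in mouse 2. It was 11.77, 11.56, 11.71, 11.58 and 11.24 in mice 1 to 5 (mean 11.57 ± 0.21, SD, n = 5), so that mouse 2 deviated from the mean by -0.015. Its lowest value was in mouse 5, 1.33-fold below the mean of the others. Mouse 5 held 0.596 of the range as a gap, and the variance did not pass (limma adjusted p = 0.699). Relative to their own means, Cyp7a1 lay 1.24 log2 units further down than Cyp8b1 in mouse 2, and between 0.09 and 0.56 above it in the other mice.

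Both enzymes of the alternative route were, like Cyp8b1, lowest in mouse 5. Cyp27a1, the first of them, was 12.07, 11.88, 12.06, 11.86 and 11.80 in mice 1 to 5 (11.93 ± 0.13, SD, n = 5), a 1.21-fold span (limma adjusted p = 0.992). Cyp7b1, which hydroxylates the oxysterols of this route, was 9.52, 9.68, 10.32, 9.28 and 8.84 (9.53 ± 0.54). Mouse 3 was highest and mouse 5 lowest, 2.79-fold apart, and no single mouse was set apart. The SD of Cyp7b1 was above that of 98.9% of 1477 genes of similar level, with 24.7 times the expected variance and a limma adjusted p of 0.0917. With each array centred on its median the adjusted p was 0.0245, and without mouse 3 the SD was 0.37.

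Cyp7b1 is known to be higher in male than in female mouse liver, under control of growth hormone. Of 12 other tested genes of a list of male-biased liver genes, 9 were also highest in mouse 3 and 8 lowest in mouse 5, against 22.9% and 21.6% of all tested genes. Mup3, a major urinary protein gene, was 10.79, 10.04, 11.85, 10.02 and 9.91 in mice 1 to 5. Elovl3, a fatty acid elongase gene, was 10.995, 11.36, 11.42, 10.575 and 9.58. Both passed the variance test (limma adjusted p = 0.0150 and 0.0202), and mouse 3 was the highest and mouse 5 the lowest for both.

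Female-biased genes ran the other way in mouse 3. Of 9 tested, 8 were lowest in mouse 3, against 18.9% of all tested genes, and their mean lay 0.49 log2 units below the list mean there. Cyp2b13, a female-biased cytochrome P450 gene, was 8.22, 8.72, 6.99, 9.305 and 8.44 (limma adjusted p = 0.0296), and the thioesterase gene Acot3 was 10.37, 10.55, 9.76, 10.71 and 10.86. The part of this pattern in the Cyp7b1 values was not tested. Among all tested genes, Cmah, Dio1, Mup3, Otop1 and Sntg2 had a gap at the high end in mouse 3 at least as large as the 0.64 log2 units of Cyp7b1.

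**Figure D2:**
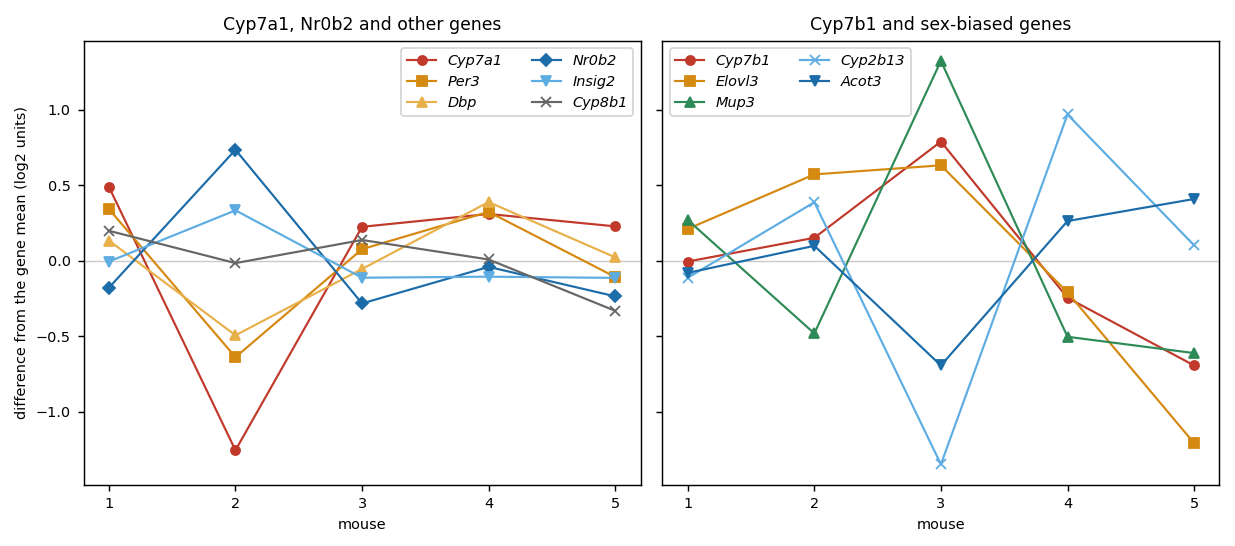
Difference of each gene from its own mean over 5 mice in log2 units, by mouse; lines join points of a gene and carry no order. On the left Cyp7a1, Per3 and Dbp dip in mouse 2 where Nr0b2 and Insig2 peak and Cyp8b1 is near its mean; on the right Cyp7b1, Elovl3 and Mup3 are highest and Cyp2b13 and Acot3 lowest in mouse 3.

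Nr1h4, which encodes the bile acid receptor FXR itself, varied little. It was 9.83, 9.64, 9.74, 9.57 and 9.555 in mice 1 to 5 (9.67 ± 0.12, SD, n = 5), and mouse 2, with the high Nr0b2, deviated from its mean by -0.03. Its SD was above that of 59.7% of 1350 genes of similar level (limma adjusted p = 0.992).

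The receptor pair for FGF15 was lowest in different mice, Fgfr4 in mouse 4 and Klb in mouse 5. Fgfr4 was 8.43, 7.96, 8.09, 7.70 and 8.11 (8.06 ± 0.27, SD, n = 5), a 1.67-fold span from mouse 4 to mouse 1. Klb was 9.24, 9.18, 9.24, 9.21 and 8.97 (9.17 ± 0.11). Mouse 5 was set apart as the lowest for Klb, by 0.756 of the range, yet only 1.18-fold below the others, and its SD without mouse 5 was 0.03. Neither variance passed (limma adjusted p = 0.767 and 0.992), and that of Klb was at the level expected for its brightness (ratio 0.997). With quantile normalization or arrays centred on their medians, mouse 5 was no longer set apart for Klb.

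Of the transporters, Slc10a1, the uptake carrier NTCP, was 12.70, 12.65, 12.71, 12.65 and 12.25 in mice 1 to 5 (12.59 ± 0.19, SD, n = 5). Mouse 5 lay 1.35-fold below the mean of the others, which spanned only 12.65 to 12.71, and the gap was 0.864 of the range. The variance was 6.25 times that expected and did not pass (limma adjusted p = 0.596). Abcb11, the export pump BSEP, was 10.95, 10.85, 10.88, 10.72 and 10.68 (10.82 ± 0.11), a 1.21-fold span that did not set any mouse apart. In mouse 2, where Nr0b2 lay 0.735 log2 units above its mean, the FXR target Abcb11 lay 0.035 above its own.

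In all, 4 of the 10 genes had a mouse set apart, against 5.65% of tested genes: Cyp7a1 and Nr0b2 in mouse 2, Slc10a1 and Klb in mouse 5. The median SD of the 10 genes was 0.20, against 0.12 for all tested genes, and 9 of the 10 had an SD above that expected at their level, as did 47.0% of tested genes. At an unadjusted p under 0.05 the variance of 6 of the 10 genes passed, where 6.34% of probe sets did. The genes were chosen with some of these values known, so the counts are descriptions.

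**Figure D3:**
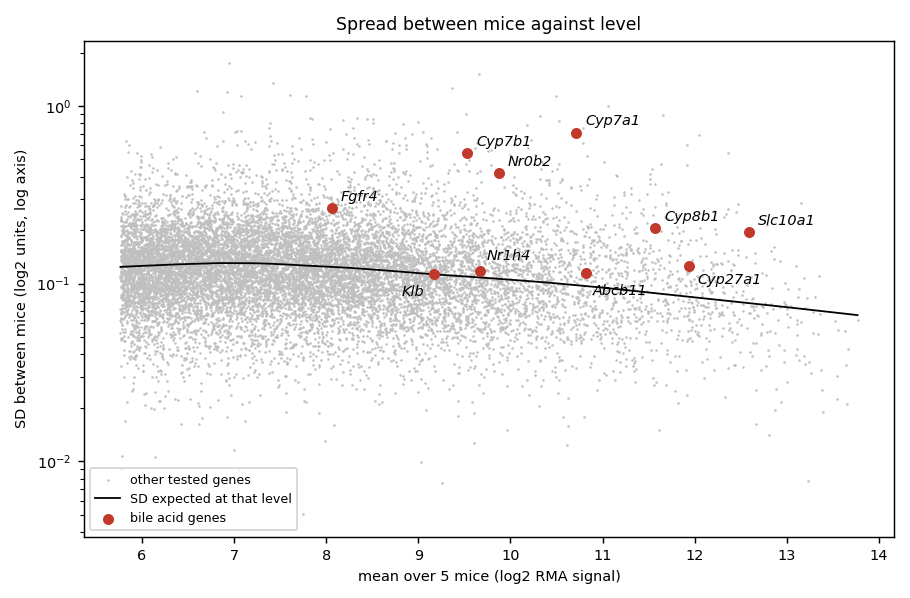
SD between mice (log axis) against mean log2 RMA signal for 13336 tested genes, with the SD expected at each level as a line and the 10 bile acid genes in red. Cyp7a1 (SD 0.71), Cyp7b1 (0.54) and Nr0b2 (0.42) lie far above the line, and Klb (0.11) lies on it.

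Mouse 5 had the lowest value of 7 of the 10 genes: Cyp8b1, Cyp7b1, Cyp27a1, Nr1h4, Klb, Slc10a1 and Abcb11. The shares of all tested genes that were lowest in mice 1 to 5 were 11.6%, 11.4%, 18.9%, 36.5% and 21.6%, and the shares highest there 23.9%, 25.5%, 22.9%, 8.47% and 19.2%. With arrays centred on their medians the count was 5 (without Nr1h4 and Abcb11), against 17.8% of tested genes. The median difference of the 10 genes from their means in mouse 5 was -0.17 log2 units, or -0.16 with centred arrays, while all tested genes together stood at -0.01.

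Of 16 measured later enzymes of bile acid synthesis 15 were tested. In mouse 5, 9 of these were lowest as well, against 21.6% of all tested genes, their list mean lying at -0.09 log2 units there. With limma 0 variances of these enzymes passed, and 3 were at an unadjusted p under 0.05 (Cyp39a1, Akr1c6 and Slc27a5). Their median SD was 0.13. Slc27a5, the ligase that attaches coenzyme A to bile acids, was 11.73, 11.75, 11.74, 11.66 and 11.28, and was the 1 gene of the list with a mouse set apart. Akr1c6, a hydroxysteroid dehydrogenase gene, was 11.835, 11.67, 11.89, 11.73 and 11.285, the same mouse being lowest.

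Mouse 5 was also lowest for other enzymes of the list, though not for the widest. Baat, which conjugates bile acids to taurine, ranged from 9.67 (mouse 5) to 10.00 (mouse 1), and Hsd3b7, the second step of the classical route, from 11.52 (mouse 5) to 11.84 (mouse 3). The widest was Cyp39a1, an oxysterol hydroxylase gene, with an SD of 0.47 and its lowest value, 6.24, in mouse 3. In mouse 2, where Cyp7a1 was lowest, 7 of the 15 were at their highest (Amacr in a tie with mouse 5), against 25.5% of tested genes.

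A list of further transporters, which also holds the epoxide hydrolase gene Ephx1, went both ways in mouse 5. Of 11 tested genes, 4 were lowest there (Slco1b2, Abcc3, Abcg5 and Abcg8), against 21.6% of tested genes, and 5 highest (Abcc2, Abcc4, Abcb4, Slc51b and Ephx1), against 19.2%. Slco1b2, a sinusoidal uptake carrier, was 10.43, 10.43, 10.65, 10.42 and 10.05, lowest in mouse 5 like Slc10a1. Abcc4, a basolateral export pump, was 9.63, 9.83, 9.17, 9.56 and 9.94, highest in mouse 5 (SD 0.30). Slco1a4, an organic anion carrier, was the 1 gene of the list whose variance passed (limma adjusted p = 0.0117, SD 1.14). Its values were 8.42, 6.20, 5.935, 6.66 and 8.14 in mice 1 to 5, the lowest, in mouse 3, only 0.15 above the brightness floor.

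**Figure D4:**
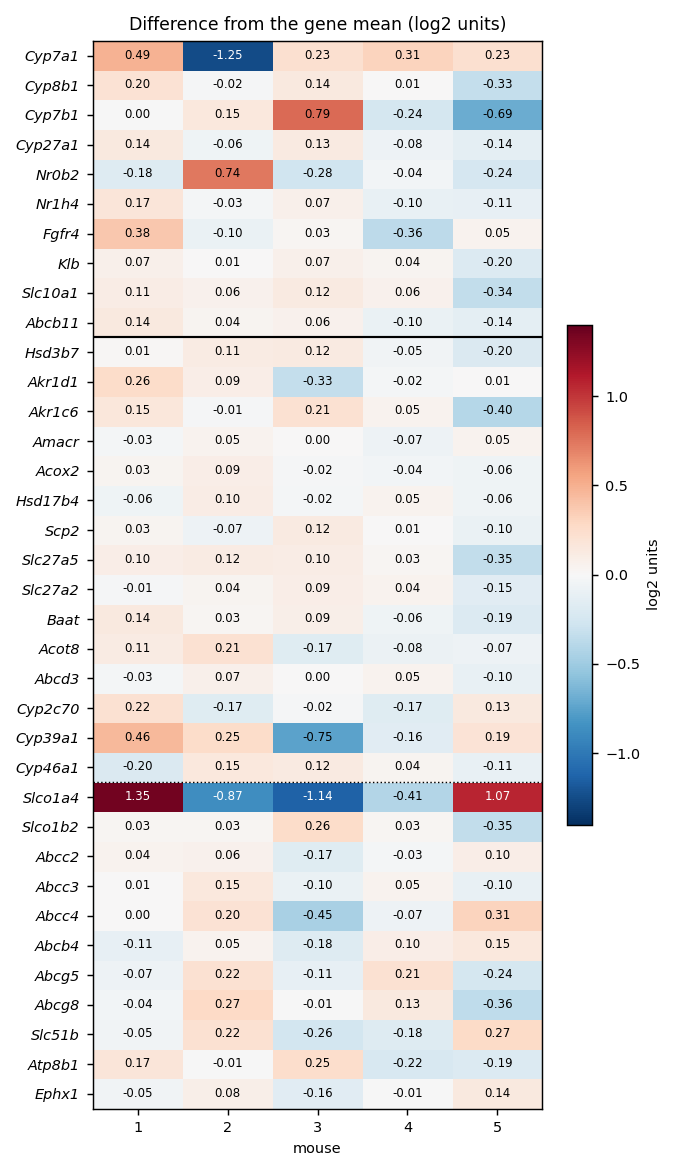
Difference from the gene mean in log2 units for the 10 genes (top block), 15 later synthesis and conjugation enzymes (middle) and 11 genes of the list of further transporters (bottom) in mice 1 to 5. The strongest cells of the top block are Cyp7a1 and Nr0b2 in mouse 2 and Cyp7b1 in mice 3 and 5, and most cells of mouse 5 in the top 2 blocks are below 0.

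Factors that act on Cyp7a1 and Cyp8b1 were then examined. Of 17 measured regulators 15 were tested, 0 had a variance that passed with limma (1 at an unadjusted p under 0.05, Nr1i2), and their median SD was 0.14. Nr5a2 (LRH-1) was 9.46, 9.47, 9.40, 9.215 and 9.19, and Hnf4a 11.61, 11.63, 11.34, 11.61 and 11.67. In mouse 2 Nr5a2 was 0.01 log2 units above the next liver and Hnf4a was not extreme, while mouse 3 was set apart as low for Hnf4a. Ppara, which encodes a receptor of bezafibrate, was 10.79, 10.75, 10.80, 10.78 and 10.45, and mouse 5 was set apart as the lowest. The coactivator gene Ppargc1a was set apart in mouse 4, at 8.20 against 7.715 to 7.82. Nr1i2, which encodes the xenobiotic receptor PXR, and Tfeb, a lysosomal regulator, were the widest, with SDs of 0.23 and 0.20.

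A list of genes downstream of FGF15 and FXR was then counted, which leaves out Nr0b2, itself induced by FXR and highest in mouse 2. The genes of this list were at an extreme in mouse 2 about as often as tested genes in general. Besides Fgfr4 and Klb 11 were tested. Of these 1 (Kng1) was lowest in mouse 2, against 11.4% of all tested genes, and 2 (Mapk8 and Scarb1) highest, against 25.5%. With limma 0 variances of the list passed, Fgfr4 and Klb included, where 0.357% of probe sets did. At an unadjusted p under 0.05 there were 5, where 6.34% of probe sets passed. For Mapk8, a kinase of the JNK pathway, mouse 2 was set apart at 8.63, the other livers lying at 8.40 to 8.45. Fgf15, a hormone gene of the ileum, was near the floor at 5.95 ± 0.10 (SD, n = 5). Jun (SD 0.35), highest in mouse 5 at 8.84, and the phosphatase gene Dusp1 (SD 0.27), highest in mouse 1 at 9.11, were the widest.

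Insig2 was the 1 cholesterol supply gene with a mouse set apart. INSIG2 retains the sterol sensor SCAP in the endoplasmic reticulum. Its values were 11.825, 12.16, 11.72, 11.725 and 11.72, with mouse 2 highest, by 0.758 of the range. Of 9 tested genes of cholesterol supply, 7 were lowest in mouse 5, against 21.6% of all tested genes. With limma 0 variances of this list passed (Insig2, Stard4 and Hmgcs1 at an unadjusted p under 0.05). The widest were Stard4, a sterol carrier (SD 0.29, lowest in mouse 5 at 8.19), and Hmgcs1 of cholesterol synthesis (SD 0.24, lowest in mouse 5 at 11.45).

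Of 7 tested genes of inflammation, which is known to lower Cyp7a1, 0 were highest in mouse 2, against 25.5% of all tested genes. Il1b and Tnf, with means of 5.82 and 5.78 near the floor, were 5.66 and 5.56 in mouse 2. Both values lay below the floor of that array (5.70) and count as undetected there. Lcn2 and Saa2, secreted acute-phase genes, were highest in mouse 1, at 10.93 and 9.67, with 8.75 and 7.30 in mouse 2. In mouse 5, where Slc10a1 was lowest, Lcn2 was 10.52 and Saa2 6.36. The chemokine gene Ccl2 was 6.93, 6.90, 7.08, 7.03 and 7.60, and mouse 5 was set apart as the highest. The variances of Lcn2 and Saa2 passed (limma adjusted p = 0.00350 and 0.00516). The part of inflammation in the values of mice 2 and 5 was not tested, and 7 genes are too few to read the count of 0 against its share.

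Markers of other cells differed between mice. Of 9 measured cholangiocyte markers 5 exceeded the floor on all arrays. The means over all 9, those below the floor included, ranged from 5.99 (mouse 3) to 6.20 (mouse 2), with 6.17 in mouse 5. These means lay close to the floor of 5.59 to 6.07. Krt19, a bile duct keratin gene, was 6.15, 6.185, 5.99, 6.05 and 6.46 in mice 1 to 5, and Cftr was below the floor on every array at 4.30. The part of these cells in the values of mice 2 and 5 was not tested. Of 12 Kupffer cell and macrophage markers 11 were highest in mouse 1. There 7 of the 10 bile acid genes were also highest, Klb in a tie with mouse 3 (23.9% of tested genes). Of 10 stellate cell markers 7 were highest in mouse 1, with a list mean deviation of 0.14, and of 10 endothelial markers 6, with 0.09. The part of these cells in the values of mouse 1 was not tested. Hepatocyte markers deviated by 0.02, -0.03, 0.02, 0.01 and -0.01 log2 units in mice 1 to 5.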

How the data were processed

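Total RNA of 5 livers was measured on Affymetrix whole-transcript arrays. The authors deposited log2 values made with RMA and Affymetrix Expression Console 1.2, as the submitters' processing notes state. RMA corrects background, equalises arrays and summarises probes, which compresses differences near background. Of 35556 probe sets the platform annotation gave 1 symbol to 21789, several to 1621 and none to 12146. All 10 genes matched RefSeq by gene ID. Arrays hold no molecule counts, so their number limits precision. No source used here gives scan batches.

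With limma 3.58.1 (R 4.3.3, statmod 1.5.0) a single mean was fitted to each of the probe sets with 1 symbol and a mean above 5.77, and the variance (4 degrees of freedom) was set against fitFDistRobustly's expectation at that mean (6.21 prior degrees of freedom, upper-tail F test). The procedure was tested on simulated data. Gaps used Dixon's 95% limit of 0.71 for 5 values, and the higher one for 4. Other steps used Python 3.11.15, numpy 2.4.6, pandas 2.3.3.

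The 10 genes and the 19 other gene lists were chosen with earlier results of these data known, and lists were described without a test. Named genes were the 10 genes, the 2 widest tested members of each list and any that passed, the nearest 5 in likeness (predicted, small RNA, Srsy, chemosensory receptor and immunoglobulin genes left out), and genes behind counts of 5 or fewer. Other genes named with values were chosen after these were seen. Normalization, brightness filter, probe sets, variance fit and single mice were varied.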

Additional observations from a re-analysis of the deposited data

Results flagged for a closer look

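Of 100 named genes 14 had a liver far from the other 4, its gap to the nearest liver exceeding 0.71 of the range. Chance gives such a gap in about 1 in 20 groups, but this count cannot be read against that share, since 8 of the 14 genes are named because of the gap and others were picked with their values known. In mouse 2 the gap was 0.848 of the range for Cyp7a1 (low), 0.762 for Nr0b2 (high), 0.758 for Insig2 (high) and 0.778 for Mapk8 (high). In mouse 5 it was 0.864 for Slc10a1, 0.756 for Klb, 0.809 for the bile acid ligase gene Slc27a5 and 0.856 for Ppara, all low, and 0.740 for Ccl2, high. Mouse 3 was low for Hnf4a (0.803), mouse 4 high for Ppargc1a (0.774), and mouse 1 high for the Kupffer cell genes Adgre1 (0.741) and Timd4 (0.826) and the stellate cell gene Des (0.834). The 8 are Slc27a5, Hnf4a, Ppargc1a, Ppara, Mapk8, Insig2, Ccl2 and Des. Of the 20 lists, the 10 genes included, the mean deviation of the female-biased genes had such a liver, mouse 3, at 0.790 of the range.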

How the results depend on the processing

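No paired analysis was possible because there is 1 group. The number of probe sets whose variance passed was 52 as reported, 142 with arrays centred on their medians, 18 with the stricter brightness filter, 18 when the fit was not robust, 24 when the expected variance ignored level, 31 with the mean of all probe sets of a gene, and 0 by limma (1385 at an unadjusted p under 0.05) when all probe sets were tested. Leaving out single mice gave 0 to 69: 0 without mouse 4 (864 at an unadjusted p under 0.05), 34 without mouse 2 and 30 without mouse 3. The count of the 10 genes with a mouse set apart was 4 as reported and 1 to 3 without single mice (2 without mouse 1, 2 or 3, and 1 without mouse 5), where 4 values have a higher limit. Over all genes it was 754, and 1274 without the brightness filter, where 19938 genes entered. Cyp7b1 passed in 1 of 8 other settings. The variances of the remaining 8 genes, all but Cyp7a1 and Cyp7b1, passed in no setting tried. All 10 genes were above the brightness floor on all 5 arrays.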

Other observations

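Genes whose pattern was nearest to that of Nr0b2 were Gpc3, which encodes a cell surface proteoglycan (root mean square difference 0.10), Scn4b (0.14), Zmynd12 (0.14), the laminin gene Lamb3 (0.14) and Adam4 (0.17), each highest in mouse 2. Gpc3 was 6.07, 6.77, 5.96, 6.26 and 6.08 in mice 1 to 5. With the sign turned they were Spin2c (0.14), Foxa3 (0.15), Lingo2 (0.18), Tmem229b (0.19) and the MHC class II gene H2-Aa (0.21), each lowest in mouse 2. Foxa3 was 8.69, 7.93, 8.56, 8.305 and 8.62, and H2-Aa was 9.56, 8.92, 9.33, 9.22 and 9.46. Lingo2 exceeded the brightness floor on 3 arrays. Adam4, Scn4b, Tmem229b, Spin2c and Gpc3 exceeded it on all 5, but by as little as 0.03, 0.11, 0.13, 0.13 and 0.17 log2 units.

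Liver zones and other cells gave the following spreads. Of 10 pericentral genes, Cyp27a1 among them, 6 were lowest in mouse 5, against 21.6% of all tested genes. Gulo (SD 0.34) and Cyp1a2 (0.30) were the widest of them. Of 7 tested periportal genes 2 (Hal and Cyp2f2) were lowest there, near that share, with Hal (0.32) and Pck1 (0.26) widest. Serpina1c (0.28) and Cyp3a11 (0.15) were the widest hepatocyte markers, Epcam (0.29) and Muc1 (0.27) the widest cholangiocyte markers, and Stab2 (0.15) and Tek (0.13) the widest endothelial ones. Reln (0.18) and Ecm1 (0.18) led the stellate cell markers, Alas2 (0.55) and Slc4a1 (0.19) the erythroid ones, and Ctrb1 (0.22) and Cpa1 (0.17) those of the exocrine pancreas. Of 11 intestinal markers 4 were tested. Apoa4 (0.79), which liver also expresses, passed the variance test (limma adjusted p = 0.0219) with 11.32 in mouse 5, and Cdx1 had an SD of 0.19. The defining intestinal genes Vil1, Fabp6 and Sis were below the floor, at 5.24, 4.94 and 4.13.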
